A study of Mus musculus with 288 samples.

Results

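The genes described here encode nuclear subunits of respiratory complex III, complex IV and ATP synthase. They were taken as the rows whose symbol starts with Uqcr, with Atp5 or with Cox and a digit from 4 to 8, without pseudogene symbols, at a mean of at least 1 TPM (transcript abundance corrected for length and scaled to a fixed library total) in 1 or more of the 12 tables. The rule found 43 of 35904 genes, of which 8 belong to complex III, 18 to complex IV and 17 to ATP synthase. Cox8c stayed below the minimum of 1 TPM, and 10 symbols that hold "-ps" were left out. Cytochrome c1 (Cyc1), also a nuclear subunit of complex III, has a symbol outside the rule and is not among the members. The study asked how a short exposure to intermittent hypoxia (IH), the pattern of oxygen loss seen in sleep apnea, alters transcript levels and daily rhythms in organs of the mouse. Wild-type C57BL/6J males, 8 weeks old, spent 7 days in normoxia or in IH, in which oxygen cycled between 21 and 8% during the light phase. All mice were then kept in constant darkness at normal oxygen for 2 days, so no group was sampled during IH itself. Lung, liver, kidney, muscle, heart and cerebellum were collected on the second of these days at 8 time points, 3 hours apart, with 3 mice for each treatment and time point, which gave 24 libraries for each tissue and treatment.

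Complex III passes electrons from ubiquinol to cytochrome c, complex IV (cytochrome c oxidase) passes them on to oxygen, and both pump protons across the inner mitochondrial membrane. ATP synthase lets the protons flow back and uses that flow to make ATP. The heart, which contracts without pause, is among the tissues richest in these enzymes. Several complex IV subunits exist in a common and a tissue-restricted form. Cox6a2, Cox7a1 and Cox8b are the forms of heart and skeletal muscle, their common partners are Cox6a1, Cox7a2 and Cox8a, and Cox4i2 is the form of Cox4i1 typical of lung. Atp5g1, Atp5g2 and Atp5g3 encode the same mature c subunit of the ATP synthase ring and differ in the leader peptide that is removed on import.

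TPM tables carry no read depth, so the precision of a level is given here by its spread over libraries. TPM summed to between 989211 and 999188 per library, no library equalled another, and the replicate numbers are not tied to animals across tissues by the labels. P-values therefore measure the spread between these libraries. A library labelled liver (IH, replicate 2, 13:30) held 1212 TPM of 8 liver markers, against 21176 to 96324 TPM in the other liver libraries, and 6892 TPM of 8 cardiac markers, against 6.43 to 56.2 TPM. A library labelled cerebellum (IH, replicate 3, 1:30) held 352 TPM of 6 cerebellar markers, against 1295 to 5336 TPM, and 7818 TPM of the cardiac markers. Cardiac markers also ranged from 58.3 to 3447 TPM over the cerebellum libraries in normoxia. In both tissues, counts of changed members, changes of named members and isoform shares that passed are given with and without the library. The other results over IH libraries of liver or cerebellum include these libraries.

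In normoxia, the heart held the highest mean level of 26 of the 43 members and the lung the lowest of 33. Together the members took 6.13% ± 0.871 (SD, n = 24) of all TPM in heart, 4.57% in cerebellum, 3.65% in muscle, 3.64% in kidney, 1.83% in liver and 1.02% in lung. Muscle and kidney could not be separated within their spread, and the libraries of heart (46423 to 82799 TPM summed over members) overlapped those of cerebellum (29397 to 59956 TPM). The lung libraries, from 9199 to 11506 TPM, lay below every library of the other tissues.

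The difference between heart and the other tissues was tested with limma on log2 values of TPM scaled by the median of ratios over all normoxia libraries, with 0.5 added. All 43 members were tested. The tissues came from 1 group of mice, and the fit held no term for the animal. Heart was higher than lung for 41 members (background over all genes tested, 36.7%) and lower for 2 (42.4%). It was higher than liver for 41 (44.7%) and lower for 2 (37.1%), and higher than kidney for 40 (45.0%) and lower for 2 (38.3%). Against muscle, 42 members were higher in heart (36.5%) and none was lower. Against cerebellum, 38 were higher (41.1%) and 4 lower (45.7%). The median log2 difference over the members was 3.50 against lung, 1.30 against liver, 1.13 against kidney, 1.01 against muscle and 1.26 against cerebellum. On TPM as deposited, without scaling, heart was higher than cerebellum for 27 members and lower for 11, and higher than kidney for 34 and lower for 4. The share of all genes without scaling was not computed, so these counts cannot be read as particular to the members.

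In the limma test on scaled values, the members lower in heart than in at least 1 other tissue were Cox4i2, Cox6a1, Cox6b2, Cox7b2 and Cox8a. By unscaled mean TPM, more members were highest outside heart: 9 in cerebellum, 6 in kidney and 2 in lung. Cox6a1 averaged 391 ± 153 TPM in heart (SD, n = 24), 1508 ± 318 in cerebellum and 1576 ± 205 in kidney, and its log2 difference of heart from kidney was -1.58 (SE 0.101, limma adjusted p = 4.53e-32). Cox8a averaged 376 ± 83.5 TPM in heart and 1386 ± 204 in kidney. The highest Cox8a library of heart, at 592 TPM, lay below the lowest of kidney, at 916 TPM.

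Cox6a2, Cox7a1 and Cox8b were the abundant forms in heart and muscle. Cox8b ranged from 2735 through a median of 3742 to 5648 TPM in heart and from 0.968 through 2.43 to 10.4 TPM in liver, with no overlap. Its log2 difference of heart from liver was 9.94 (SE 0.224, limma adjusted p = 6.24e-84). Cox7a1 averaged 3617 ± 782 TPM in heart, 1215 ± 172 in muscle, 225 ± 144.1 in cerebellum, 88.5 ± 16.1 in kidney, 31.6 ± 9.73 in lung and 11.5 ± 4.27 in liver. Cox6a2 averaged 2392 ± 374 TPM in heart and 1648 ± 252 in muscle, and was 2.37 ± 1.84 in liver and 2.95 ± 0.688 in kidney. Kidney thus held Cox7a1 and Cox8b (52.1 ± 17.3 TPM) at levels well above those of Cox6a2. In the same kidney libraries Myh6, the cardiac myosin, averaged 0.216 TPM, and 8 fat markers summed to 70.7 to 207 TPM. Myh6 averaged 224 ± 201 TPM in cerebellum and 60.3 ± 23.7 in lung. The part of fat or cardiac cells in the levels of kidney, cerebellum and lung was not tested.

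Cox4i2 was highest in lung, from 64.7 through 114 to 138 TPM. The next tissue, heart, ranged from 9.04 through 16.4 to 27.0 TPM and did not overlap lung. Cox4i2 averaged 12.5 ± 2.71 TPM in cerebellum, 7.56 ± 1.69 in muscle, 1.22 ± 0.285 in kidney and 0.188 ± 0.129 in liver. Cox6b2, a form of Cox6b1 otherwise known from testis, was similar in lung (34.8 ± 4.998 TPM) and cerebellum (31.3 ± 9.56) and lower in heart (7.31 ± 2.92). Cox7b2 averaged 10.4 ± 4.94 TPM in cerebellum and at most 0.255 TPM in any other tissue. Atp5g2, the least abundant of the c subunit genes, ran from 11.3 TPM in liver to 39.8 in cerebellum. Cox7c has a processed copy, Cox7c-ps1, whose highest table mean was 38.0 TPM, so that reads could be split between them.

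Sequences upstream of the start site are shown for the pairs of common and muscle form in which both genes had a promoter in the table. They come from RefSeq (GRCm38.p6), cover bases 150 to 31 before the annotated start, and are written in the direction of the gene, with each CG in capitals. The first of each pair is the common form. Cox7a2 lies at chr9:79759884-79760003 (minus strand), Cox7a1 at chr7:30184021-30184140 (plus strand), Cox8a at chr19:7217647-7217766 (minus strand) and Cox8b at chr7:140900477-140900596 (minus strand).
Cox7a2: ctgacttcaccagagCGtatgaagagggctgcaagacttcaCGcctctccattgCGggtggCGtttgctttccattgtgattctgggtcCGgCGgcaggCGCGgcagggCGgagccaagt
Cox7a1: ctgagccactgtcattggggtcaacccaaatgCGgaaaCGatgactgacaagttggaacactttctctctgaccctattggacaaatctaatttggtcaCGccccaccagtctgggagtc
Cox8a: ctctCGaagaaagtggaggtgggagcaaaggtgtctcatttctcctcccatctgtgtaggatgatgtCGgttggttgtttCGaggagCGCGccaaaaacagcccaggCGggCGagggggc
Cox8b: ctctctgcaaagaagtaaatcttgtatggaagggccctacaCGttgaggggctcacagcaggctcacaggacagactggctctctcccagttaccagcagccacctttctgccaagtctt

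Over these stretches Cox7a2 held 9 CG and Cox7a1 held 3, and Cox8a held 7 and Cox8b 1. Promoters were found for 33 of the 43 members, as 250 bases before to 50 after the start. In that window the members had a median of 19 CG, against 8 over the 27025 genes in the table, and 30 members (90.9%) had 10 or more, against 45.8% of the genes. Cox8b (2 CG), Cox7b (5) and Cox7a1 (7) were the members under 10.

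The letters of the NRF1 motif (GCGCA, any base, GCGC) were in the promoter window of 8 of the 33 members (24.2%), against 5.19% of all genes, counting both strands. NRF1 is a transcription factor known for its sites in genes of the respiratory chain. The ETS motif CCGGAAGT was in 4 members (12.1%, against 4.31%), the YY1 motif AANATGGC in 5 (15.2%, against 6.96%) and the E-box CACGTG in 4 (12.1%, against 8.09%). These matches describe letters and not binding. Cox6a1, which was lower in heart than in kidney, held 2 NRF1 matches, in capitals here, over bases 170 to 31 before its start (chr5:115348989-115349128, minus strand).
Cox6a1: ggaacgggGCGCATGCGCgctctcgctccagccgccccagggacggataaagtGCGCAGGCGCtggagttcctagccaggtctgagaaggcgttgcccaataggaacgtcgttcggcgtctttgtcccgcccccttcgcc

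After IH, most members were lower in lung, and among the members that passed the test most were lower in heart and higher in liver, by less than 1.5-fold for nearly all. Each tissue was tested alone with limma, 24 IH against 24 normoxia libraries, over genes at a mean of at least 1 TPM. In bulk tissue, fewer cells of a type and less RNA in each cell cannot be told apart.

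In lung, 34 of 41 members tested were lower after IH (background 41.5%) and none was higher (28.9%). Past both the adjusted p and 1.5-fold lay 3 members (13.5%). The median log2 change was -0.37 over the members and -0.08 over all genes. On TPM as deposited these medians were -0.07 and 0.21, so the distance of the members from all genes hardly moved (-0.30 and -0.28). There, 14 members were lower and 4 higher (65.7% of all genes in either direction). The 8 complex III members all passed as lower, as did the 10 common complex IV genes, the 4 genes of the peripheral stalk of ATP synthase and its 5 small membrane subunits. The muscle forms and Cox6b2, by contrast, did not pass.

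Cox5a, a complex IV subunit common to all tissues, ranged from 123 through 144.01 to 188 TPM in lung in normoxia and from 79.2 through 126 to 165 TPM after IH. The groups overlapped, and the log2 change was -0.62 (SE 0.077, limma adjusted p = 1.85e-09). Cox4i2, the lung form, went from 64.7 through 114 to 138 TPM to 57.1 through 95.2 to 120 TPM, a log2 change of -0.60 (SE 0.081, limma adjusted p = 1.21e-08). Atp5a1, the alpha subunit of the catalytic head, had medians of 259 and 233 TPM and ranges of 231 to 306 and 128 to 289 TPM, with a log2 change of -0.60 (SE 0.085, limma adjusted p = 3.58e-08). For each of these 3 genes the mean was lower after IH at 8 of 8 time points. The TPM levels given are unscaled, and on them the log2 changes were -0.31, -0.29 and -0.29, which passed the adjusted p and not 1.5-fold.

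Atp5pb, of the peripheral stalk, had the lowest adjusted p of the members in lung. It ranged from 120 through 137 to 162 TPM in normoxia and from 93.0 through 117 to 146 TPM after IH, with a log2 change of -0.56 (SE 0.056, limma adjusted p = 6.51e-12). Cox5b fell by 0.49 on the log2 scale (SE 0.052, limma adjusted p = 1.94e-11) and Atp5g3 fell by 0.58 (SE 0.065, limma adjusted p = 1.00e-10). On TPM as deposited these 3 genes had log2 changes of -0.25, -0.19 and -0.28. The number of genes detected per library moved with treatment in lung, from 22694 ± 737 in normoxia to 25455 ± 1529 after IH. With that number as a further term, 29 members were lower and 1 was higher (52.5% of all genes in either direction). Neither Cox4i2 nor Atp5a1 passed there (limma adjusted p = 0.402 and 0.799). The 5 lung markers summed to 135986 to 264207 TPM in normoxia and 34578 to 205116 TPM after IH; their part in the result was not tested.

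In heart, 17 of 42 members were lower after IH (background 17.3%) and 3 were higher (28.0%), and 0 passed both the adjusted p and 1.5-fold (2.95%). The median log2 change was -0.23 over the members and 0.04 over all genes, and -0.10 and 0.15 on TPM as deposited. There, 15 members were lower and 5 higher (43.9% of all genes in either direction). The 5 small membrane subunits of ATP synthase were all lower and 3 of 5 small complex III subunits were lower. The 3 that were higher were the complex III core proteins Uqcrc1 and Uqcrc2 and the ATP synthase alpha subunit.

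Uqcrc2 ranged in heart from 166 through 244 to 334 TPM in normoxia and from 220 through 324 to 401 TPM after IH. The log2 change was 0.25 (SE 0.073, limma adjusted p = 0.00485). Uqcrc1 rose from a median of 464 to 602 TPM (log2 change 0.23, SE 0.078, limma adjusted p = 0.0130) and Atp5a1 from 979 to 1256 TPM (0.22, SE 0.079, limma adjusted p = 0.0188). The ranges of the groups overlapped for all 3 genes.

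Cox7c, one of the smallest complex IV subunits, ranged in heart from 1626 through 2192 to 3247 TPM in normoxia and from 1311 through 1704 to 2329 TPM after IH. It fell by 0.52 on the log2 scale (SE 0.112, limma adjusted p = 2.16e-04). Atp5md, which helps to hold ATP synthase dimers together, fell by 0.47 (SE 0.125, limma adjusted p = 0.00198), and Cox6b2, at medians of 6.67 and 5.54 TPM, fell by 0.46 (SE 0.088, limma adjusted p = 4.42e-05). The number of genes detected in heart was 22988 to 28331 in normoxia and 20316 to 22793 after IH, without overlap, so it and treatment cannot be told apart; with it as a further term, 0 members and 2.01% of all genes passed. In heart, 5 smooth muscle markers went from a median sum of 487 to 658 TPM (331 to 645 and 443 to 906 TPM) and 8 fat markers from 87.8 to 175 TPM (23.3 to 636 and 17.98 to 775 TPM), and their part in the result was not tested. Without replicate 1, 3 of 42 members passed in heart, 2 higher and 1 lower (24.0% of all genes, in either direction), without replicate 2, 15 passed (36.9%), and without replicate 3, 27 passed (45.0%).

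In liver, 16 of 39 members were higher after IH (background 10.9%) and 1 was lower (13.3%), and 3 passed with 1.5-fold (3.65%). The median log2 change was 0.26 over the members and -0.01 over all genes. On TPM as deposited, 14 members were higher and 5 lower (21.8% of all genes in either direction). Without the library with cardiac markers, 16 were higher and 2 lower (29.0% of all genes in either direction). Of these, 2 passed with 1.5-fold, Cox7a1 no longer among them. All 5 small membrane subunits of ATP synthase were higher, as were the 3 muscle forms tested and 3 of 10 common complex IV subunits. None of the 3 genes of the complex III core and Rieske proteins passed. Other markers moved with treatment in liver: medians of the summed levels went from 60972 to 41757 TPM for 8 liver markers, from 3.70 to 84.8 TPM for 8 kidney markers and from 1521 to 2498 TPM for 2 blood markers, and their part in the result was not tested. Without replicate 1, 0 of 39 members passed in limma (9 at an unadjusted p under 0.05), and without replicate 2, 1 passed, at background shares of 0.962% and 2.11% of all genes in either direction; without replicate 3, 28 passed (41.4%).

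Atp5md ranged in liver from 479 through 661 to 847 TPM in normoxia and from 507 through 846 to 1644 TPM after IH, with a log2 change of 0.55 (SE 0.152, limma adjusted p = 0.00644). Cox7a2l rose from a median of 113 to 151 TPM (log2 change 0.46, SE 0.101, limma adjusted p = 9.07e-04). Atp5b, the catalytic beta subunit, was the member that fell, from 1052 through 1263 to 1448 TPM in normoxia to 506 through 1012 to 1347 TPM after IH (log2 change -0.24, SE 0.086, limma adjusted p = 0.0315). Within replicate 3 alone, the log2 changes of these genes were -0.02, -0.05 and 0.07. Over all replicates without the library with cardiac markers, they were 0.52, 0.45 and -0.28.

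Cox8b ranged in liver from 0.968 through 2.43 to 10.4 TPM in normoxia and from 4.01 through 6.11 to 986 TPM after IH, and its log2 change was 1.37 (SE 0.365, limma adjusted p = 0.00496). The highest value was that of the library with cardiac markers, which also held 857 TPM of Cox7a1 and 619 TPM of Cox6a2, or 24.8, 23.7 and 25.9% of the heart means of these genes in normoxia. Without that library the log2 changes were 1.03 for Cox8b (limma adjusted p = 1.61e-05), 0.85 for Cox6a2 and 0.58 for Cox7a1, against 1.18 and 0.86 with it for the latter genes. The 8 cardiac markers moved with them: without that library they summed to 23.9 to 51.2 TPM after IH and 6.43 to 56.2 TPM in normoxia, with medians of 36.0 and 13.8 TPM, and their part in the result was not tested. Within replicate 3 alone, log2 changes were 0.23 for Cox8b, 0.19 for Cox6a2 and -0.06 for Cox7a1. None of these passed (limma adjusted p = 0.922, 0.937 and 0.967).

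In kidney, 7 of 41 members were higher after IH (background 8.25%) and 1 was lower (11.5%), and 0 passed with 1.5-fold (0.783%). Atp5e, the epsilon subunit of the catalytic head, ranged from 1123 through 1763 to 2803 TPM in normoxia and from 1435 through 2107 to 6592 TPM after IH (log2 change 0.47, SE 0.134, limma adjusted p = 0.00982). Atp5mpl rose by 0.31 on the log2 scale (limma adjusted p = 0.0241) and Atp5o, of the stalk, by 0.18 (limma adjusted p = 0.0263), while Uqcrc2 fell by 0.16 (limma adjusted p = 0.0176). On TPM as deposited, 1 member was higher and 1 lower (7.82% of all genes in either direction). Without replicate 1, 2 were higher and 2 lower, without replicate 2, 0 were higher and 2 lower, and without replicate 3, 20 were higher and 0 lower (17.4, 19.7 and 15.5% of all genes in either direction).

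In muscle, 0 of 42 members were higher after IH (background 5.48%) and 4 were lower (4.89%), and 0 passed with 1.5-fold (0.374%), with 11 at an unadjusted p under 0.05 in limma. Atp5b fell by 0.15 on the log2 scale, from a median of 1914 to 1815 TPM (SE 0.039, limma adjusted p = 0.00917). Atp5g2 fell by 0.30, from 26.4 to 22.9 TPM (SE 0.090, limma adjusted p = 0.0210), and Uqcrc1 by 0.14 (SE 0.041, limma adjusted p = 0.0232). On TPM as deposited, 2 members were higher and 1 lower (15.2% of all genes in either direction), and Atp5b and Uqcrc1 did not pass. The distance of the members' median log2 change from that of all genes was -0.08 with scaling and -0.07 without. Without replicates 1, 2 and 3 in turn, 17, 0 and 2 members passed in limma, all lower (11.9, 2.63 and 9.44% of all genes in either direction), with 2 at an unadjusted p under 0.05 in the set of 0.

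In cerebellum, 6 of 42 members were higher after IH (background 9.76%) and 1 was lower (5.24%), and 0 passed with 1.5-fold (2.64%). Atp5g3 ranged from 470 through 866 to 1378 TPM in normoxia and from 724 through 1250 to 1813 TPM after IH (log2 change 0.48, SE 0.124, limma adjusted p = 0.00621). Atp5k, a small membrane subunit, had medians of 1053 and 1554 TPM (log2 change 0.55, SE 0.161, limma adjusted p = 0.0157), and Cox6a1 of 1406 and 2079 TPM (0.45, SE 0.135, limma adjusted p = 0.0186). Cox7b was the member that fell, from a median of 1018 to 749 TPM (log2 change -0.39, SE 0.120, limma adjusted p = 0.0196). Without the library with cardiac markers, 6 members were higher and 2 lower (24.4% of all genes in either direction). The log2 changes there were 0.46 for Atp5g3, 0.52 for Atp5k, 0.49 for Cox6a1 and -0.40 for Cox7b. Without replicate 1, and likewise without replicate 2, 0 members passed in limma (9 and 4 at an unadjusted p under 0.05), and without replicate 3, 6 were higher and 8 lower. Of all genes, 1.20, 0.321 and 35.1% passed in these settings, so the loss and gain of calls were not particular to the members.

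The change of the members differed from one replicate number to the next (8 IH against 8 normoxia libraries each), a difference that was not tested. In lung the median log2 change of the members was 0.02 within replicate 1, -0.40 within replicate 2 and -0.62 within replicate 3. In liver it was 0.42, 0.37 and 0.03, in kidney 0.14, 0.34 and -0.13, in muscle 0.19, -0.17 and -0.24, in heart -0.49, -0.11 and -0.02, and in cerebellum -0.06, -0.05 and 0.22. Within replicate 1 of muscle, 9 members were higher and 0 lower, against 16 lower and 0 higher within replicate 3. Of all genes, 4.25 and 8.27% passed there in either direction. Within replicate 1 of lung, 17 of 41 members were lower and 5 higher (66.3% of all genes in either direction). Within replicate 1 of heart, 25 of 42 were lower and 0 higher (38.0%).

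**Figure D1:**
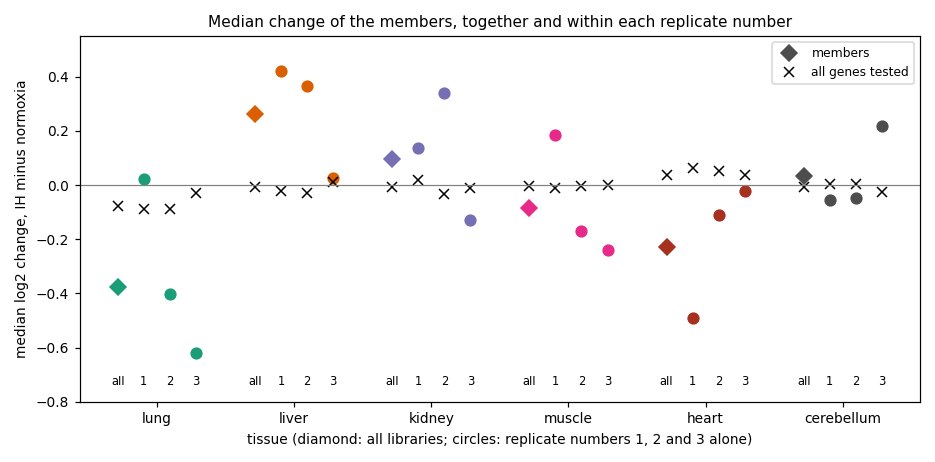
Median log2 change of the members, IH minus normoxia (vertical axis), in each of 6 tissues, over all 48 libraries (diamonds) and within replicate numbers 1, 2 and 3 alone (circles, 16 libraries each), with the median of all genes tested as crosses. The circles of lung run from 0.02 to -0.62 and those of muscle from 0.19 to -0.24, while the crosses stay between -0.09 and 0.06.

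Members also moved together from library to library. Over the 24 normoxia libraries, members of at least 100 TPM had a median pairwise correlation of 0.93 in heart (38 members), 0.91 in liver, 0.86 in muscle, 0.81 in lung, 0.75 in kidney and 0.59 in cerebellum. The points share libraries, scaling and short transcripts, and the values are a description. The member least like the rest was Cox6a1 in heart (mean r 0.06), Atp5a1 in muscle (-0.14) and in kidney (0.21), Atp5b in lung (-0.38) and Cox7a2l in liver (0.23).

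The change after IH was ordered by transcript length in several tissues. Across members, Spearman's rho of log2 change with the median length of a gene's annotated transcripts was 0.69 in heart (42 members), -0.57 in liver (39), -0.51 in kidney (41), -0.35 in lung (41), 0.10 in muscle (42) and -0.04 in cerebellum (42). Members are not independent replicates, and no test was made. In heart, the 19 members with transcripts under 600 bases had a median log2 change of -0.29 and the 10 of at least 1000 bases one of 0.01. In liver, 17 short members had a median of 0.33 and 10 long members one of 0.07. A correction for transcript length was also fitted over all genes. With it, 9 members were lower and 2 higher in heart (39.8% of all genes in either direction), and their median moved from -0.23 to -0.04. In liver 17 were higher and 3 lower (29.8%), and the median moved from 0.26 to 0.16.

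**Figure D2:**
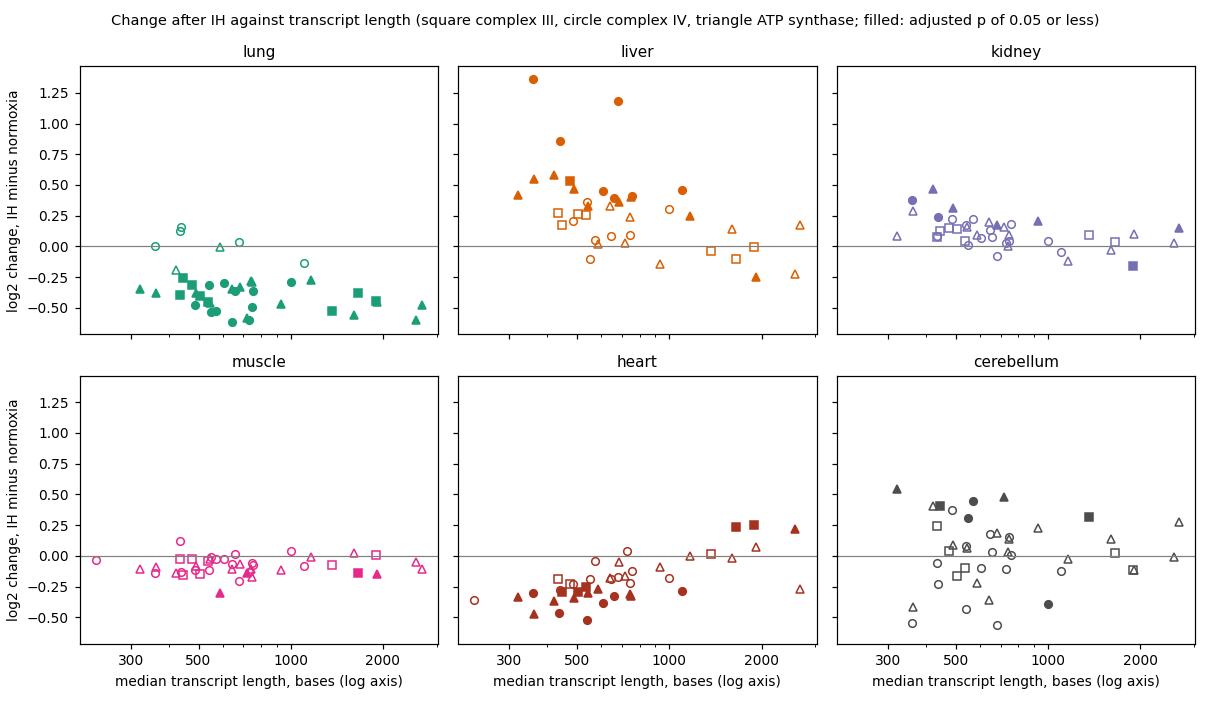
Log2 change of each member after IH (vertical axis) against the median length of its annotated transcripts in bases (log axis), 1 panel for each tissue. Squares are complex III, circles complex IV and triangles ATP synthase, and filled symbols have an adjusted p of 0.05 or less. In heart the short members lie below 0 and the longest near or above it, and in liver and kidney the short members lie highest.

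The share of an isoform in the summed TPM of its group does not depend on how libraries are scaled. Of 46 shares tested (permutation test within time points, 2-sided, 100000 resamples, adjusted over the 46), 18 differed between IH and normoxia. The shares of Atp5g1, Atp5g2 and Atp5g3 in a tissue make up a whole, so calls among them are not separate results. Without replicate 1, 8 of these 18 no longer passed, without replicate 2, 12 did not, and without replicate 3, 1 did not. Lung accounted for 6 of the 18. Cox6a2 made up 7.48% ± 1.39 of Cox6a1 and Cox6a2 in normoxia and 10.6% ± 1.81 after IH (SD, n = 24; adjusted p = 1.53e-04, from the smallest p the permutations could give, 1e-05). Cox6b2 went from 10.1% ± 1.43 to 14.6% ± 2.60 of its pair at the same p, Cox7a1 from 14.1% ± 3.34 to 19.1% ± 4.21 (adjusted p = 5.75e-04) and Cox8b from 8.72% ± 3.00 to 12.3% ± 4.67 (adjusted p = 0.00831). The ranges overlapped for all 4, and the mean was higher after IH within each of the 3 replicates. Of the 6 lung shares, Cox8b lost its call with a replicate left out (without replicate 1, permutation adjusted p = 0.0697).

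In lung, Atp5g2 went from 2.69% ± 0.348 to 4.06% ± 1.46 of the c subunit genes (permutation adjusted p = 1.53e-04) and Atp5g3 from 69.6% ± 1.88 to 67.1% ± 1.31 (adjusted p = 6.44e-04). Cox4i2 made up 15.1% ± 2.24 in normoxia and 13.5% ± 3.99 after IH, a difference of -1.58 percentage points that did not pass (adjusted p = 0.168). Beside the raised share of muscle forms, the 8 cardiac markers in lung summed to 293 to 1138 TPM in normoxia and 434 to 1307 TPM after IH, with medians of 506 and 913 TPM. Pulmonary veins of the mouse carry cardiac muscle. The 8 skeletal muscle markers summed to 16.3 to 508 TPM in normoxia and 25.5 to 881 TPM after IH, with medians of 23.2 and 41.4 TPM. The part of cardiac and skeletal muscle cells in the shares was not tested.

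**Figure D3:**
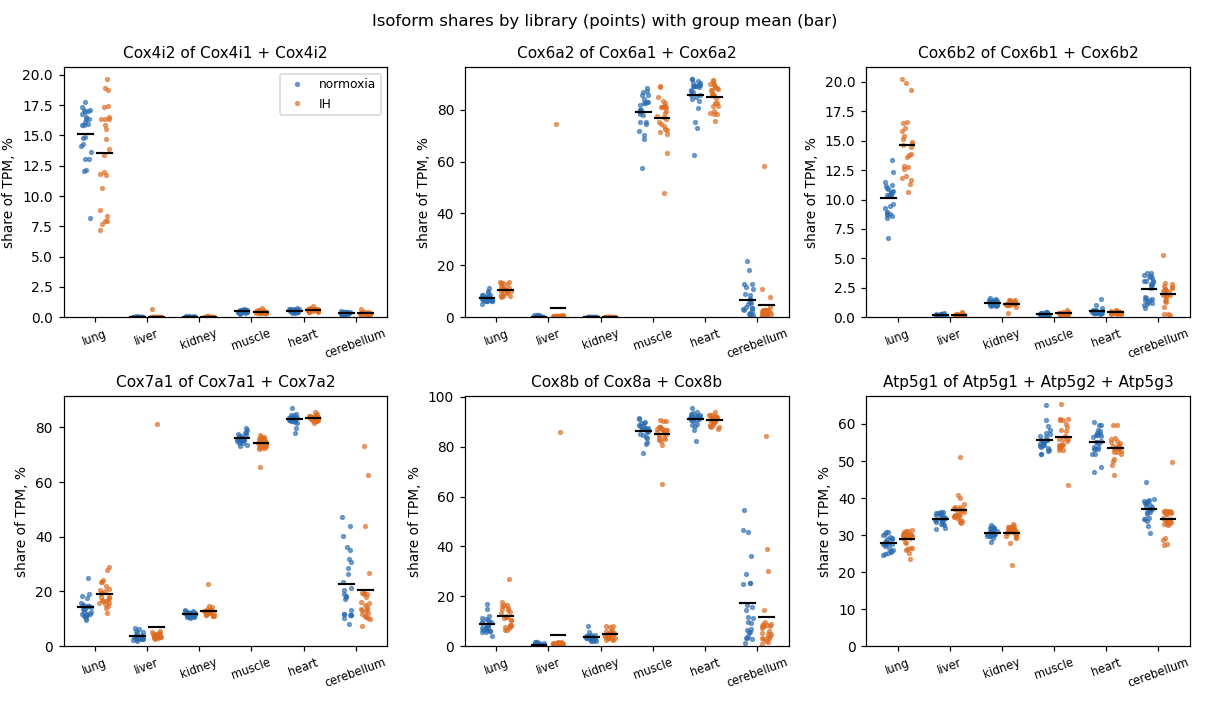
Share of 1 isoform in the summed TPM of its group, in percent (vertical axis), for 6 isoforms in 6 tissues, with 1 point per library (24 normoxia, 24 IH) and a bar at the mean. Muscle and heart hold the muscle forms at 74.1 to 91.1% on average, lung shows higher IH means for Cox6a2, Cox6b2, Cox7a1 and Cox8b, and single IH libraries of liver and cerebellum stand far above the rest of their tissue.

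In heart, the differences in isoform share were within the spread of libraries. Cox6a2 made up 85.6% ± 6.86 in normoxia and 84.9% ± 4.55 after IH, Cox7a1 83.0% ± 1.71 and 83.5% ± 0.895, and Cox8b 91.1% ± 2.70 and 90.7% ± 1.82, and none of the 8 heart shares passed (lowest permutation adjusted p = 0.0747). In muscle, Cox7a1 fell from 76.0% ± 1.66 to 74.1% ± 2.33 (permutation adjusted p = 0.00330) and Atp5g2 from 1.13% ± 0.154 to 0.997% ± 0.162 (adjusted p = 0.0195). In kidney, Cox7a1 rose from 11.7% ± 0.814 to 12.9% ± 2.29 (permutation adjusted p = 0.00294) and Cox8b from 3.65% ± 1.25 to 4.71% ± 1.65 (adjusted p = 0.0331), while Cox6a2 fell from 0.186% ± 0.036 to 0.152% ± 0.037 (adjusted p = 0.00559). The 8 cardiac markers summed to at most 7.10 TPM in any kidney library, and 8 fat markers, Ucp1 of brown fat among them, had median sums of 146 and 157 TPM, whose part was not tested. Without replicate 2 the 2 muscle shares and the 3 kidney shares no longer passed.

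In liver, Cox8b made up 0.599% ± 0.507 of its pair in normoxia and 4.65% ± 17.3 after IH (permutation adjusted p = 9.97e-04). Without the library with cardiac markers the IH mean was 1.12% ± 0.240 (adjusted p = 0.00115). Cox6a2 went from 0.280% ± 0.245 to 3.51% ± 15.1 (permutation adjusted p = 0.0227) and, without that library, to 0.426% ± 0.117 (adjusted p = 0.0404). Among the c subunit genes of liver, Atp5g1 rose from 34.4% ± 1.36 to 36.8% ± 3.61 (permutation adjusted p = 0.00213) and Atp5g3 fell from 64.7% ± 1.39 to 62.4% ± 3.60 (adjusted p = 0.00256). Without the library with cardiac markers the IH means were 36.2% ± 1.98 and 63.0% ± 2.06 (permutation adjusted p = 0.00235 and 0.00260). All 4 liver shares lost their call without replicate 2. The Cox8b share averaged 0.316% in normoxia and 1.20% after IH within replicate 1, and 1.08 and 1.09% within replicate 3.

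Cerebellum showed differences among the c subunit genes. Atp5g3 rose from 60.2% ± 3.18 to 64.0% ± 4.42 (permutation adjusted p = 0.00445), Atp5g1 fell from 37.1% ± 2.84 to 34.3% ± 4.34 (adjusted p = 0.0242) and Atp5g2 fell from 2.76% ± 1.18 to 1.69% ± 0.450 (adjusted p = 0.00177). Without the library with cardiac markers the IH means were 64.6% ± 3.22, 33.7% ± 2.92 and 1.73% ± 0.431 (permutation adjusted p = 1.15e-04, 2.76e-04 and 0.00215). All 3 lost their call without replicate 1 and without replicate 2. The muscle forms did not pass in cerebellum over all libraries. Without the library with cardiac markers, Cox6a2 dropped by 4.14 percentage points (permutation adjusted p = 0.00257) and Cox8b dropped by 8.93 (adjusted p = 0.0349). The cardiac markers, with medians of 839 TPM in normoxia and 488 TPM after IH in cerebellum, moved with these shares, and their part was not tested.

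Whether the change after IH differed between tissues was tested in 1 limma fit over all libraries scaled together. The tissues came from 1 group of mice and no term for the animal was fitted, so the p-values treat all libraries as independent. Of 39 members tested, 39 had a change that differed over the 6 tissues (background 89.2%), and 15 had a change that differed between heart and lung (64.1%). Among these 15, the change was more positive in heart for all, by 0.90 in log2 units for Atp5a1 (SE 0.106, limma adjusted p = 5.13e-14). Both shares should be read against backgrounds that are themselves high.

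A rhythm of 24 hours was tested as a cosine and sine term in limma over the 24 libraries of each tissue and treatment. Kidney in normoxia had the most rhythmic members, 13 of 41 (background 21.0%). Lung in normoxia had 1 (9.15%), Cox4i2, with an amplitude of 0.18 in log2 units and a peak at 16.8 h (limma adjusted p = 0.0381). Muscle after IH had 1 (8.83%), Cox6b2, with an amplitude of 0.30 and a peak at 17.2 h (limma adjusted p = 0.0363). No member passed in lung after IH (4.65%), in liver in normoxia (17.7%) or after IH (2.63%), in kidney after IH (5.74%), in muscle in normoxia (6.38%), in heart in normoxia (0.626%) or after IH (4.17%), or in cerebellum in normoxia (0%) or after IH (0.0134%). In these 9 sets, the members at an unadjusted p under 0.05 numbered 5 in normoxic cerebellum, 1 each in lung after IH, liver after IH and normoxic muscle, and 0 in the rest.

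The 13 rhythmic members in normoxic kidney were Atp5j, Atp5j2, Atp5k, Atp5l, Atp5md, Cox6b2, Cox6c, Cox7a1, Cox7a2, Cox7c, Cox8b, Uqcr11 and Uqcrb. They peaked between 16.4 and 18.9 h, with amplitudes of 0.18 to 0.38 in log2 units. Atp5k averaged 836 ± 196 TPM at 1:30 and 1259 ± 135 TPM at 16:30 (n = 3 each), with an amplitude of 0.29 (limma adjusted p = 0.00216). Atp5j2 had an amplitude of 0.31 (limma adjusted p = 0.00999) and Cox6b2 one of 0.19 (limma adjusted p = 0.0157). The JTK rank test found 9 rhythmic members in normoxic kidney (background 4.26%) and 0 elsewhere, where the background in normoxia and after IH was 1.96 and 4.23% in lung, 9.11 and 2.95% in liver, 0.468 and 1.42% in muscle, 0.125 and 0.556% in heart and 0 and 0% in cerebellum, and 0.581% in kidney after IH. In the cosine fit, 0 members passed in normoxic kidney without replicate 1, and 6 passed without replicate 3. The share of all genes in these settings was not computed, so a general loss of calls cannot be told apart from one of the members.

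After IH, all 13 amplitudes in kidney were smaller than in normoxia, with medians of 0.24 and 0.06. These members were chosen for a rhythm in normoxia, which by itself favors a smaller value in the other group. The test of the difference in rhythm passed for 0 members in any tissue (background 0% in each), with 3 members in muscle, 1 in kidney, 1 in cerebellum and 0 in lung, liver and heart at an unadjusted p under 0.05, and the lowest p among the 13, that of Atp5k, was 0.0425 (adjusted p = 0.981, limma).

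**Figure D4:**
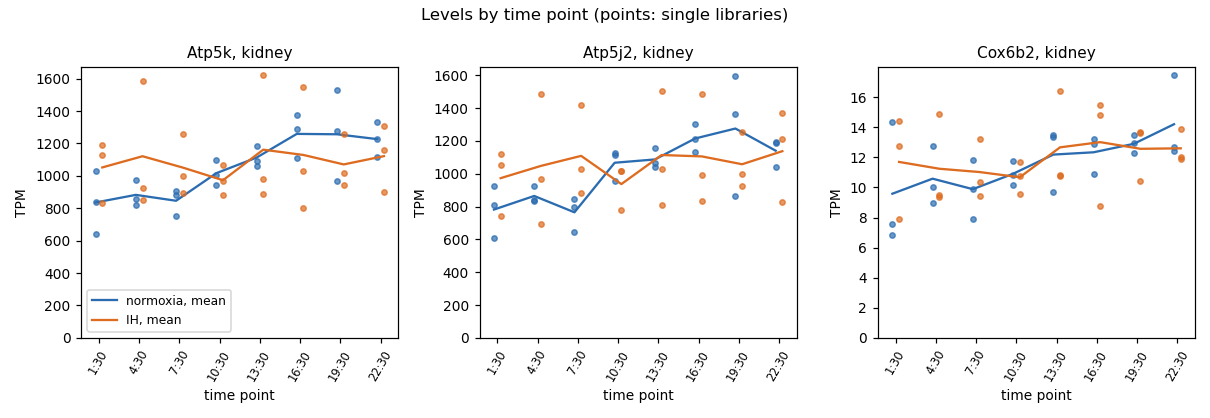
TPM (vertical axis) of Atp5k, Atp5j2 and Cox6b2 in kidney by time point (horizontal axis), with 1 point per library (3 for each treatment and time point) and lines through the means of normoxia and IH. The normoxia means of Atp5k run from 836 TPM at 1:30 to 1259 TPM at 16:30, and the IH points spread across the normoxia line.

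Partners of these subunits were counted with the same tests, together with Cyc1, the complex III subunit outside the symbol rule. All 4 complex II genes were lower in lung (background 41.5%), as were 3 of 6 mitochondrially encoded partners. Cytochrome c (Cycs) and Cyc1 were also lower there, each at a log2 change of -0.36. Of 29 assembly factors, 11 were lower and 1 higher in lung (background 41.5 and 28.9%), and 11 were lower and 7 higher in heart (17.3 and 28.0%). In cerebellum 8 were higher and 1 lower (9.76 and 5.24%), in kidney 5 were lower (11.5%) and in muscle 1 was higher (5.48%). In liver 28 were tested, with 8 higher and 2 lower (10.9 and 13.3%). In heart, Sdha, the large catalytic subunit of complex II, was higher (log2 change 0.35), the other 3 complex II genes did not pass, and Cycs was lower (-0.34). The mitochondrially encoded mt-Co2 was lower in lung and in muscle, by log2 changes of -0.75 and -0.74.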

How the data were processed

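The authors deposited 1 table per tissue and treatment (12 tables) of gene-level TPM, made with Kallisto on the mouse transcriptome; replicates were not pooled. TPM holds no read depth, so no interval from counts could be given. Libraries were grouped by the labels. TPM values were scaled by the median of ratios within a tissue (or over the tissues compared), 0.5 was added and log2 taken, and genes at a mean of at least 1 TPM were tested with limma 3.58.1 (trend, empirical Bayes) in R 4.3.3, with Benjamini-Hochberg adjustment over all genes tested; log2 changes understate changes of low genes. The study tested means with a count model and rhythms with MetaCycle; limma replaced the former because the files hold TPM, and a cosine fit, with a rewritten JTK test as an alternative, the latter. Isoform shares were compared by a permutation test (100000 resamples, labels exchanged within time points) in Python 3.11.15 with scipy 1.17.1. Positions and transcript lengths were matched for all 43 members from GENCODE M21 (GRCm38), and 97.8% of all genes had a length. Each fit was tested on simulated data. Members, gene lists and isoform groups were chosen with earlier results of these data known. Named with values are the isoform groups, in each tissue every member past an adjusted p of 0.05 and 1.5-fold and the 3 members with the lowest adjusted p in each direction, and the 3 with the lowest adjusted p for rhythm. Replicates in the same tissue were compared for pairing across treatments, over 24 pairs of libraries with the same number and time point. Pairs that deviated together (correlation over 0.1) numbered 5 in lung, 16 in liver, 6 in kidney, 12 in muscle, 8 in heart and 7 in cerebellum. The median correlation was 0.22 in liver, 0.10 in muscle and between -0.14 and 0.03 elsewhere. The numbers were not taken as pairs in any tissue, and the replicate block is given as an alternative. Alternatives covered scaling, pseudocount, filters, time point, replicate, genes detected and transcript length.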

Additional observations from a re-analysis of the deposited data

Results flagged for a closer look

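The change after IH differed between tissues by a test of the difference itself for 39 members over the 6 tissues and for 15 members between heart and lung (limma interaction, adjusted p of 0.05). Among the members named above, the log2 change in heart minus that in lung was 0.90 for Atp5a1, 0.76 for Uqcrc2, 0.69 for Uqcrc1, 0.61 for Atp5pb, 0.50 for Cox5a, 0.49 for Atp5g3 and 0.35 for Cox5b. Of all genes tested, 89.2 and 64.1% passed these tests.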

How the results depend on the processing

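TPM tables carry no depth, so low members such as Cox6c2 and Cox7b2 have unknown counting error. Alternatives within a single replicate were chosen after seeing the data. Counts of members past the adjusted p of 0.05, and past it with 1.5-fold, moved as follows, and the cause was not tested. Brackets hold the share of all genes past the adjusted p, in either direction, in the same setting. No such share is given for the 1.5-fold counts. In lung, 34 (70.4%) became 18 on TPM as deposited (65.7%) and 22 within replicate 1 (66.3%). The 3 with 1.5-fold became 0 on TPM as deposited and with the length correction. They became 17 with genes detected as a term, 0 to 19 with a replicate left out, and 13 and 22 within replicates 2 and 3. In liver, 17 (24.2%) became 7 with no filter (7.27%) and 0 within replicate 3 (0.00872%). With a replicate left out they became 0 to 28 (0.962 to 41.4%). The 3 with 1.5-fold became 6 with genes detected and 0 to 11 with a replicate left out. Within replicates 1, 2 and 3 they became 14, 5 and 0. In kidney, 8 (19.8%) became 2 on TPM as deposited (7.82%) and 4 with no filter (9.06%). With a replicate left out they became 2 to 20 (15.5 to 19.7%). Within replicates 1 and 2 they became 0 and 21 (0.813 and 19.4%). Within replicate 3 they were 8 (28.3%), with 0 higher and 8 lower, against 7 higher and 1 lower over all libraries. The 0 with 1.5-fold became 0 to 1 with a replicate left out and 4 within replicate 2. In muscle, 4 (10.4%) became 1 with no filter (2.84%), 7 with genes detected (12.3%) and 8 with the length correction (11.7%). With a replicate left out they became 0 to 17 (2.63 to 11.9%). Within replicates 1, 2 and 3 they became 9, 1 and 16 (4.25, 5.09 and 8.27%). In heart, 20 (45.2%) became 0 with genes detected (2.01%) and 11 with the length correction (39.8%). With a replicate left out they became 3 to 27 (24.0 to 45.0%). Within replicates 2 and 3 they became 0 (10.9 and 5.05%). The 0 with 1.5-fold became 0 to 2 with a replicate left out and 14 within replicate 1. In cerebellum, 7 (15.0%) became 4 with genes detected (10.1%) and 0 to 14 with a replicate left out (0.321 to 35.1%). Within replicates 1 and 3 they became 1 and 0 (8.32 and 0%). The 0 with 1.5-fold became 1 with no filter and with genes detected, and 0 to 7 with a replicate left out. Within replicate 2 it became 4.

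With the replicate number as a block, liver had 26 members past the adjusted p, against 17 without it (32.2 and 24.2% of all genes). Muscle had 8, against 4 (13.6 and 10.4%). Rhythmic members became 2 in muscle after IH and 1 in cerebellum in normoxia, and 1 isoform share lost its call. The labels give no pairing of animals.

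The rhythm of 1 member in normoxic lung became 0 on TPM as deposited, by JTK and with any replicate left out. That of 1 in muscle after IH became 0 on TPM as deposited, on TPM in place of log2, by JTK and with any replicate left out. The 13 in normoxic kidney became 0 to 11 with a replicate left out. The 15 members that differed between heart and lung became 7 to 32 with a replicate left out. For the counts of rhythm and of heart against lung with a replicate left out, no share of all genes was computed. The 18 isoform shares became 6 to 21 with a replicate left out, and 0, 11 and 0 within replicates 1, 2 and 3.

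Among named members and shares, a sign reversed in single replicates alone. The median change of the members also changed sign without replicate 2 in kidney (-0.016, against 0.095), without replicate 3 in cerebellum (-0.038, against 0.035), on TPM as deposited in muscle (0.014, against -0.084), and within replicate 1 of lung, muscle and cerebellum, replicate 2 of cerebellum and replicate 3 of kidney. Within replicate 3, log2 changes were -0.063 for Cox7a1, -0.052 for Cox7a2l, -0.023 for Atp5md and 0.068 for Atp5b in liver, -0.072 for Atp5mpl and -0.081 for Atp5o in kidney and 0.050 for Cox7b in cerebellum, and share differences in percentage points were -0.0076 for Cox6a2 in liver and 0.188 for Atp5g2 and -0.087 for Atp5g3 in cerebellum. Within replicate 1, Uqcrc2 in kidney was at 0.011.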
